A study of Equus caballus with 15 samples.

Results

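The cathepsins were 10 genes named by symbol (CTSA, CTSB, CTSC, CTSD, CTSF, CTSH, CTSK, CTSL, CTSS and CTSZ), and 9 of them had a row among the 16932 protein-coding genes listed. CTSH had no row under that symbol and was not analysed here. The genes were taken by symbol, whatever their values, from a family chosen with earlier results of these data known. All 9 passed the filter on low values, as did 11628 genes in all. The filter was a mean over the libraries of 1 CPM or more, where CPM is the count of a gene scaled to a common library total.

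Cathepsins are proteases of lysosomes and endosomes. Most are cysteine proteases, while CTSD is an aspartic protease and CTSA a serine carboxypeptidase. They are made as inactive precursors, sorted to lysosomes and activated by cleavage at acid pH, and cystatins inhibit the cysteine enzymes. In macrophages they break down engulfed material and prepare peptides for antigen presentation, and in joints secreted cathepsins can degrade cartilage matrix.

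RNA was sequenced from macrophages that were grown from blood mononuclear cells of 2 horses over 5 days with 30 ng/ml human M-CSF. All 5 groups shared this culture, and each held 3 libraries. Untreated macrophages received no stimulus, and the IL-1ß group received IL-1ß at 10 ng/ml. In the remaining groups, IL-1ß was given together with an orthobiologic therapy (OT) that made up 25% of the medium for 24 h. The OTs were MSC-CM, which is medium conditioned by mesenchymal stromal cells, PRP lysate, made from lysed platelet rich plasma, and ACS, an autologous serum that is incubated before use. All OTs were prepared from the same 3 donor horses, aged 2 to 5 years, and the macrophage donors were 2 other horses, aged 3 and 5 years. As the study describes them, the IL-1ß and untreated libraries were technical replicates of the macrophages, so the spread within those 2 groups may be technical only.

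The libraries held 28410738 to 47894067 reads on genes as recovered from the CPM, and the lowest value among the 9 cathepsins rested on 420 reads. IL-1ß replicate 3, PRP lysate replicate 1 and MSC-CM replicate 1 stood apart on the first principal component, with scores of -103, -51.7 and -20.7 against -8.15 to 26.6 in the others. Of the macrophage markers, 10 of 11 were listed, and their summed level was 4193 to 6323 CPM in untreated, 3438 to 6409 in IL-1ß, 4328 to 5296 in MSC-CM, 2039.9 to 4236 in PRP lysate and 3651 to 4903 CPM in ACS macrophages. CD68 was at 1339.7 CPM or more in every library, while CD14 was at 1.38 to 4.32 CPM, so that marker was nearly absent. T cell markers summed to 1450.0 CPM in IL-1ß replicate 3 and 1542 CPM in PRP lysate replicate 1, and to 538 to 1157 CPM in the other libraries. Neutrophil markers, of which 3 of 6 were listed, summed to 4.49 CPM at most.

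Differences are given as means of log2(CPM + 1) in the group named first minus those in the second, each with its standard error, and folds are ratios of mean CPM. A gene was called at an adjusted p of at most 0.05, from limma over all genes tested. In bulk RNA, fewer cells of a kind and less RNA per cell cannot be told apart.

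CTSC was lower with PRP lysate and with ACS than with IL-1ß alone, and CTSD and CTSB were lower with PRP lysate. No cathepsin passed the test in MSC-CM treated or in IL-1ß treated macrophages against their controls, and none was called higher in any of the 7 comparisons.

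CTSC (ENSECAG00000020881, EquCab3.0 chromosome 7, 59885819 to 59922283) encodes cathepsin C, or dipeptidyl peptidase I, which removes dipeptides from protein ends and activates serine proteases stored in granules of leukocytes. Its level was 1772, 1586 and 1589.8 CPM in untreated macrophages and 1786, 2003 and 2213 CPM with IL-1ß. With MSC-CM it was 2115, 1651 and 2035 CPM. PRP lysate gave 473, 409 and 392 CPM, and ACS gave 890.0, 1098 and 1133 CPM. The PRP lysate libraries were lowest, the ACS libraries lay between, and neither group overlapped with any other. The MSC-CM range overlapped with both the untreated and the IL-1ß range, while every IL-1ß library was above every untreated one.

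**Figure D1:**
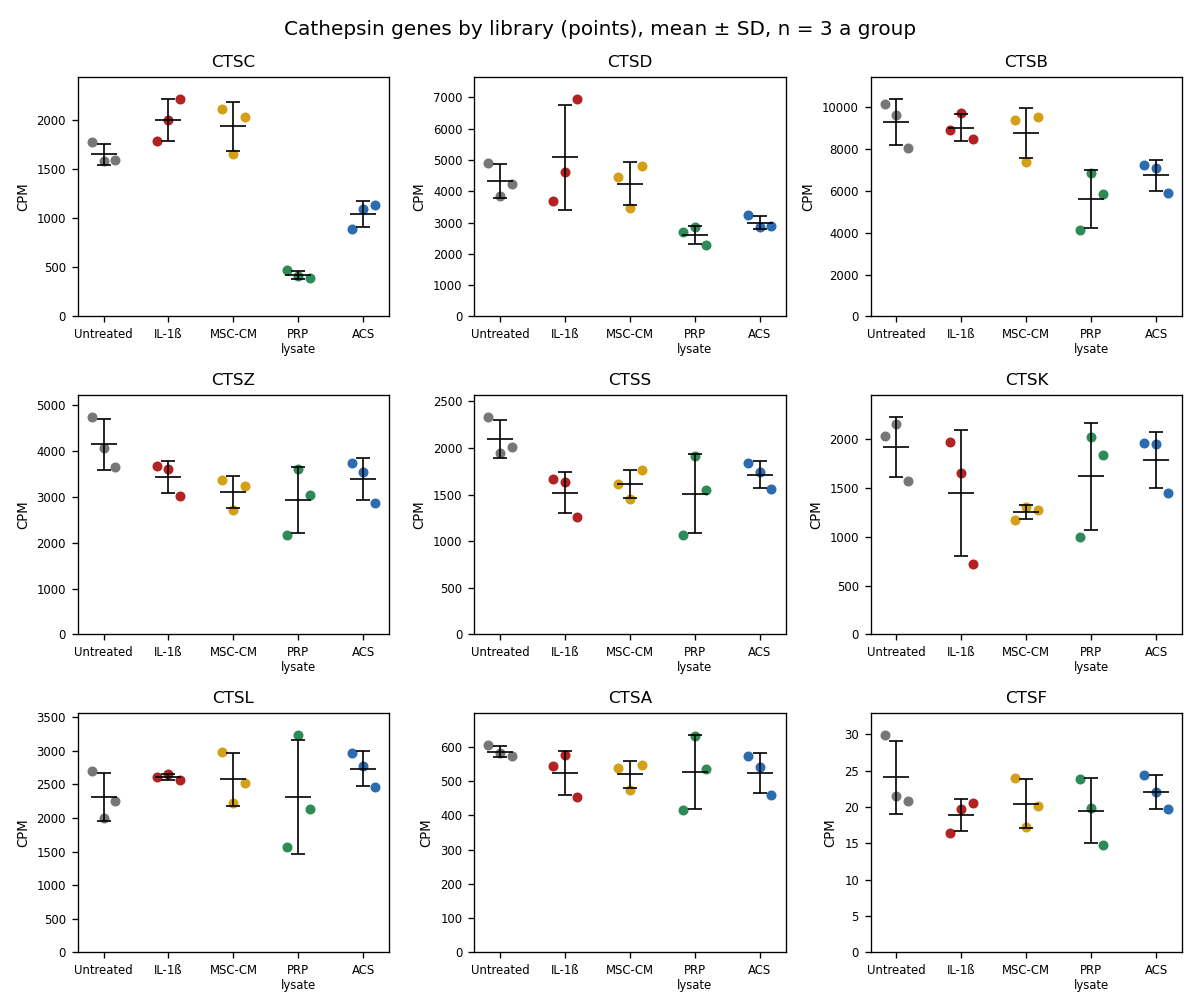
Levels in CPM of the 9 cathepsin genes (vertical axes, from 0) by group (horizontal axes), where points are libraries and bars are mean ± SD with n = 3. CTSC stood at 392 to 473 CPM with PRP lysate and 890.0 to 1133 CPM with ACS, below the other groups, whereas CTSA, CTSL and CTSF overlapped across nearly all groups.

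Against IL-1ß alone, CTSC fell 4.71-fold with PRP lysate, from 2001 ± 214 to 425 ± 43.0 CPM (SD, n = 3 each), a log2 difference of -2.23 ± 0.138 (SE) with an adjusted p of 3.01e-06. Here 3 of 9 cathepsins were called, against 4.94% of all genes tested. With ACS it fell 1.92-fold, to 1040.3 ± 131 CPM, with a difference of -0.95 ± 0.138 and an adjusted p of 0.00322, and 1 of 9 cathepsins was called against 3.45% of all genes. Both comparisons share the IL-1ß libraries. The PRP lysate call held in all 16 alternatives, the ACS call in 13 of 15. The fall with ACS was under 2-fold, and in a fit of the ACS and IL-1ß libraries alone the adjusted p was 0.0696. Without the 3 libraries that stood apart, the differences were -2.24 with PRP lysate and -0.87 with ACS, both still called.

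The OTs were also compared with each other. The means in these comparisons do not include the IL-1ß libraries, but the estimate of the spread is shared by all 15 libraries. CTSC was 4.55-fold lower with PRP lysate than with MSC-CM (-2.18 ± 0.138, adjusted p = 8.06e-06) and 1.86-fold lower with ACS than with MSC-CM (-0.89 ± 0.138, adjusted p = 0.00515). The former call held in all 17 alternatives and the latter in 14 of 15, all but the rule of at least 2-fold. It was the only cathepsin called in either comparison, 1 of 9, where 4.22% and 1.92% of all genes were called. Between PRP lysate and ACS it was 2.45-fold lower with PRP lysate (-1.29 ± 0.138, adjusted p = 0.00187), again 1 of 9 cathepsins against 0.103% of all genes. All 12 genes called between PRP lysate and ACS were lower with PRP lysate, and CTSC was among them. In a fit of those libraries alone, 0 genes were called and the adjusted p of CTSC was 0.0947.

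**Figure D2:**
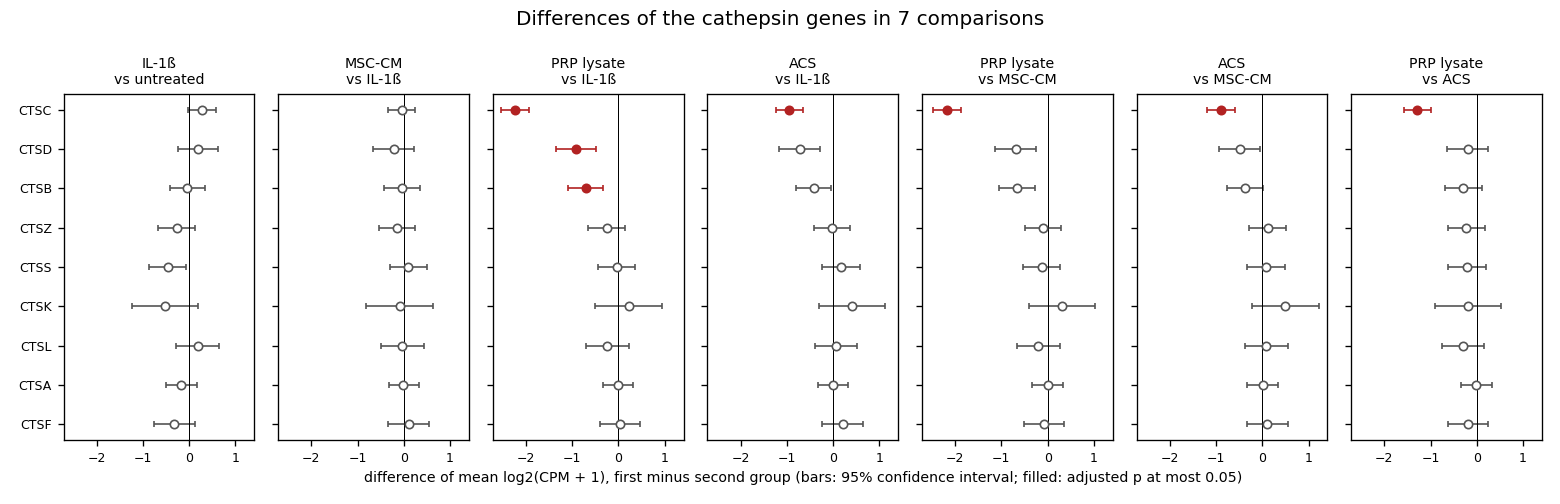
Differences of mean log2(CPM + 1) between the first and the second group named above each panel (horizontal axes) for the 9 cathepsin genes (vertical axis), with 95% confidence intervals as bars and filled points for an adjusted p of at most 0.05. CTSC is filled in 5 of the 7 panels, from -2.23 to -0.89, while CTSD and CTSB are filled in the PRP lysate against IL-1ß panel only, at -0.92 and -0.71.

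CTSD (ENSECAG00000039088, chromosome 12, 34105826 to 34138304) encodes cathepsin D, the main aspartic protease of lysosomes. It was at 4898, 3844 and 4226 CPM in untreated macrophages and at 3690.5, 4617 and 6949.5 CPM with IL-1ß. With MSC-CM it was 4463, 3463 and 4809.7 CPM. PRP lysate libraries held 2685, 2856 and 2290.0 CPM, and ACS libraries 3236, 2861 and 2879 CPM. Every PRP lysate and ACS library was below every library of the remaining groups, and the highest PRP lysate value (2856 CPM) was just under the lowest ACS value (2861 CPM). The IL-1ß library of 6949.5 CPM, replicate 3, was one of those that stood apart.

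Against IL-1ß, CTSD fell 1.95-fold with PRP lysate (-0.92 ± 0.204, adjusted p = 0.0193). Without IL-1ß replicate 3 the difference was -0.67 and still called. The call held in 9 of 16 alternatives and was lost, among others, without IL-1ß replicate 2 (-0.96, adjusted p = 0.0507) and without PRP lysate replicate 3 (-0.83, adjusted p = 0.0877). With ACS the difference of -0.72 ± 0.204 did not pass (adjusted p = 0.0774, 95% interval -1.16 to -0.28), although DESeq2 on the recovered reads gave an adjusted p of 0.0241 and the fit without IL-1ß replicate 1 gave 0.0205. PRP lysate against MSC-CM gave -0.69 (adjusted p = 0.0818, and 0.0284 without the 3 libraries that stood apart), ACS against MSC-CM -0.49 (adjusted p = 0.303, and 0.0427 in a fit of these libraries alone) and PRP lysate against ACS -0.20 (adjusted p = 0.842).

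CTSB (ENSECAG00000023820, chromosome 2, 60304503 to 60318857) encodes cathepsin B, a cysteine protease that cuts inside proteins and trims their ends. Untreated libraries held 10188, 9653 and 8054 CPM, IL-1ß libraries 8919, 9719.5 and 8468 CPM, and MSC-CM libraries 9411, 7402 and 9547 CPM. With PRP lysate it was 4134, 6870.1 and 5857 CPM, and with ACS 7255, 7102 and 5901 CPM. All PRP lysate and ACS libraries were below all libraries of the other groups, but they overlapped with each other. The lowest value was that of PRP lysate replicate 1, a library that stood apart.

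CTSB fell 1.61-fold with PRP lysate against IL-1ß (-0.71 ± 0.180, adjusted p = 0.0370), the smallest of the called changes among the cathepsins. It kept its call in 6 of 16 alternatives. Leaving out IL-1ß replicate 1 gave an adjusted p of 0.0637, IL-1ß replicate 2 gave 0.124 and PRP lysate replicate 3 gave 0.0828. With PRP lysate replicate 1 left out, the difference was -0.51 and the adjusted p 0.0723. For ACS against IL-1ß the difference was -0.42 (adjusted p = 0.214, 95% interval -0.81 to -0.04). PRP lysate against MSC-CM gave -0.67 with an adjusted p of 0.0569, and 0.0305 without PRP lysate replicate 2. ACS against MSC-CM gave -0.38 with an adjusted p of 0.388.

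CTSS and CTSK are cysteine proteases whose genes lie side by side on chromosome 5, CTSK (ENSECAG00000019087) from 43018097 to 43027483 and CTSS (ENSECAG00000022438) from 43048602 to 43066542. They were 21118 bp apart with 0 listed genes between them. Cathepsin S cuts the invariant chain in antigen presentation, and cathepsin K degrades collagen and is known from osteoclasts.

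CTSS was 2332, 1944 and 2012 CPM in untreated macrophages, and 1665, 1635 and 1263 CPM with IL-1ß. It was 1617, 1456 and 1764 CPM with MSC-CM, 1067, 1909 and 1549 CPM with PRP lysate, and 1835, 1745 and 1556 CPM with ACS. All IL-1ß libraries were below all untreated ones, but the difference of -0.47 ± 0.187 (95% interval -0.87 to -0.06) did not pass, with an unadjusted p of 0.0265 and an adjusted p of 0.314. Its range with PRP lysate covered that of each other treated group.

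CTSK was 2035, 2161 and 1579 CPM in untreated, 1974, 1657 and 726 CPM in IL-1ß and 1169.9, 1305 and 1280.0 CPM in MSC-CM libraries. With PRP lysate it was 1001, 2029.9 and 1839.8 CPM, and with ACS 1960.3, 1955 and 1455 CPM. The lowest values of the IL-1ß and PRP lysate groups were those of the libraries that stood apart. Among the 9 members, CTSK had the widest spread within a group, a coefficient of variation of 44.7% with IL-1ß. Every ACS library was above every MSC-CM library, with a difference of 0.50 ± 0.333 that did not pass (adjusted p = 0.584, 95% interval -0.22 to 1.22). In a fit of these libraries alone it passed, with an adjusted p of 0.0349. For PRP lysate against MSC-CM the adjusted p was 0.828, and without the 3 libraries that stood apart it was 0.0466, with a difference of 0.58.

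CTSZ, CTSL, CTSA and CTSF passed the test in no comparison. Cathepsin Z trims single residues from the carboxyl ends of proteins, and CTSZ (ENSECAG00000024967, chromosome 22, 46229513 to 46363302) was at 4738, 4056 and 3638 CPM in untreated and 3664, 3609 and 3021 CPM in IL-1ß macrophages. It was 3366, 2708 and 3232 CPM with MSC-CM, 2165, 3595 and 3039.9 CPM with PRP lysate and 3736, 3541 and 2861 CPM with ACS. Cathepsin L is a broad cysteine endopeptidase, and CTSL (ENSECAG00000007210, chromosome 23, 2672239 to 2735531) ranged from 1571 to 3234 CPM, with both extremes in PRP lysate libraries. None of its 10 pairs of groups lay apart.

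CTSA (ENSECAG00000002350, chromosome 22, 35751562 to 35757767), whose product protects beta-galactosidase and neuraminidase in the lysosome, ranged from 416 CPM in PRP lysate replicate 1 to 631 CPM in PRP lysate replicate 2. Its group means, from 519.7 with MSC-CM to 586 CPM in untreated macrophages, had the smallest ratio of highest to lowest among the members. CTSF (ENSECAG00000022139, chromosome 12, 30240404 to 30244855), encoding a further cysteine protease that can cut the invariant chain, ranged from 14.8 CPM in PRP lysate replicate 3 to 29.9 CPM in untreated replicate 1. The strand setting of the counting is not given in the sources used here. The spans of CTSA, CTSD, CTSL and CTSZ overlapped those of other listed genes (PLTP for CTSA, ENSECAG00000030236 for CTSD, DAPK1 for CTSL, and GNAS and NELFCD among others for CTSZ), and CTSL has a close copy in CTSV, so reads may be assigned wrongly among them.

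IL-1ß itself changed no cathepsin past the threshold by limma, 0 of 9 against 0.387% of all genes tested. DESeq2, which called 342 genes in this comparison, and edgeR, which called 33, also called 0 of 9. At an unadjusted p of at most 0.05, 1 of 9 passed, namely CTSS, where 1506 of all 11628 genes did. The differences ran from -0.52 to 0.27 and their 95% intervals from -1.24 to 0.65. Groups did not overlap for 3 of 9 cathepsins, CTSS and CTSF with lower values in every IL-1ß library and CTSC with higher ones (CTSC 0.27, adjusted p = 0.416; CTSF -0.32, adjusted p = 0.512). Of all genes tested, 16.2% had groups that did not overlap.

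MSC-CM likewise changed 0 of 9 cathepsins against IL-1ß by any of the same tools, and 0 of 9 at an unadjusted p of at most 0.05. In this comparison 0.00% of all genes were called by limma and 651 genes had an unadjusted p of at most 0.05. The 9 differences lay between -0.22 and 0.11 with 95% intervals from -0.81 to 0.63. Their median was -0.05 where that of all genes was 0.16, and -0.22 against 0.00 with RLE size factors, a scaling to the median gene.

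Over the 9 cathepsins together, the median difference was -0.24 with PRP lysate and 0.00 with ACS against IL-1ß, beside 0.11 and 0.13 over all genes. Without the 3 libraries that stood apart these medians were -0.06 and -0.10, beside 0.02 and 0.01. Apart from those called, the differences with PRP lysate lay between -0.25 and 0.22 and those with ACS between -0.72 and 0.41. The median against untreated macrophages with IL-1ß was -0.17, beside -0.07. Between the OTs it was -0.13 for PRP lysate against MSC-CM, 0.09 for ACS against MSC-CM and -0.22 for PRP lysate against ACS, beside -0.09, -0.04 and -0.04.

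The summed level of the 9 genes was 29290.1, 25840.3 and 23943 CPM in untreated and 24869.7, 26494 and 25673 CPM in IL-1ß macrophages. With MSC-CM it was 25690.1, 20691 and 25748 CPM, with PRP lysate 13537, 21553 and 17651 CPM, and with ACS 22473, 21640.4 and 18718 CPM. The sum thus took 2.49% to 2.65% of the CPM scale with IL-1ß and 1.35% to 2.16% with PRP lysate. All PRP lysate and ACS libraries were below all IL-1ß libraries, and the lowest was PRP lysate replicate 1, which also had the lowest sum of macrophage markers, 2039.9 CPM, and the highest of T cell markers, 1542 CPM. Their part in the result was not tested.

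**Figure D3:**
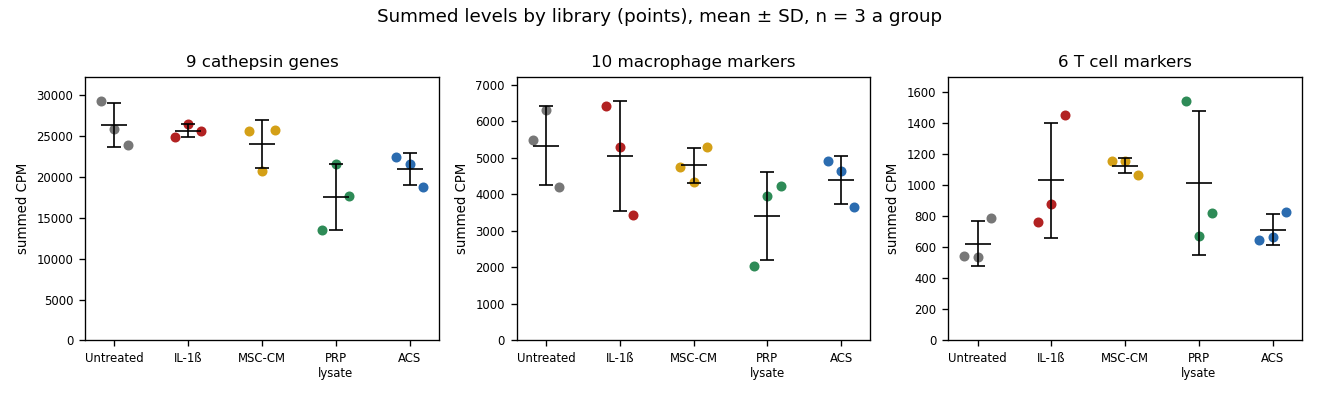
Summed CPM (vertical axes, from 0) of the 9 cathepsin genes, 10 macrophage markers and 6 T cell markers by group (horizontal axes), where points are libraries and bars are mean ± SD with n = 3. PRP lysate replicate 1 is lowest for the cathepsins (13537 CPM) and macrophage markers (2039.9 CPM) and highest for the T cell markers (1542 CPM).

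Of the 10 macrophage markers tested, 3 were lower with PRP lysate against IL-1ß (CD163, AIF1 and LYZ) and 2 with ACS (CD163 and AIF1). Of all genes tested, 3.00% and 1.68% were called lower. The medians over the list were -0.95 and -0.21, beside 0.11 and 0.13 over all genes. Without IL-1ß replicate 3 these medians were -0.99 and -0.45, beside -0.02 and 0.01. CD163, a scavenger receptor, went from 563 ± 173 CPM with IL-1ß to 11.4 ± 3.48 with PRP lysate and 64.6 ± 25.0 CPM with ACS (adjusted p = 9.04e-06 and 0.00149). AIF1 went from 25.8 ± 3.26 to 9.35 ± 0.643 and 11.6 ± 1.76 CPM (adjusted p = 0.00176 and 0.0133). CD68, a lysosomal membrane protein, was at 1629.9 ± 138 CPM with IL-1ß, 1660.1 ± 298 with PRP lysate and 1631 ± 45.6 CPM with ACS. LYZ, encoding lysozyme, went from 9.24 ± 6.07 to 1.83 ± 0.944 CPM with PRP lysate (-1.72, adjusted p = 0.0329). Between the OTs, CD163 was lower with PRP lysate (-5.25, adjusted p = 1.94e-05) and with ACS (-2.86, adjusted p = 0.00275) than with MSC-CM, where it was at 481 ± 203 CPM, and lower with PRP lysate than with ACS (-2.39, adjusted p = 0.0347). AIF1 was lower with PRP lysate than with MSC-CM (95% interval of the log2 difference -1.45 to -0.55, adjusted p = 0.0147). With the 3 libraries that stood apart left out, CSF1R, the M-CSF receptor, was also called lower with PRP lysate than with IL-1ß (adjusted p = 0.00524) and than with MSC-CM (adjusted p = 0.0199). In that fit, 4 of the 10 markers were called lower with PRP lysate than with MSC-CM, among them C1QB (-1.44, adjusted p = 0.0164). MSR1 was called higher (0.58, adjusted p = 0.0485). Of all 11628 genes, 985 were called lower and 521 higher there. Without IL-1ß replicate 3 alone, CSF1R was called lower with PRP lysate than with IL-1ß (adjusted p = 0.0183) and LYZ was not called. The part of these marker changes in the fall of CTSC was not tested.

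Among the markers of other cells, 0 of 6 T cell markers and 0 of 4 B cell markers were called in any comparison, and the B cell markers summed to 47.6 CPM at most. With the 3 libraries that stood apart left out, 2 of 4 B cell markers were lower with PRP lysate than with MSC-CM, CD79A (-1.05, adjusted p = 0.0325) and MS4A1 (-0.90, adjusted p = 0.0435). So was 1 of 6 T cell markers, CD5 (-0.77, adjusted p = 0.0215). CD79A was also lower with PRP lysate than with IL-1ß (-1.30, adjusted p = 0.0134). Leaving these libraries out raised the genes called from 491 to 1506 for PRP lysate against MSC-CM and from 574 to 1178 against IL-1ß, of 11628 tested. In ACS against MSC-CM, where CTSC and LGMN were lower, all 6 T cell markers were lower in every ACS library than in every MSC-CM library. Of all genes tested, 35.1% had groups that did not overlap in this comparison. The differences of the 6 markers were -0.81 to -0.47 with an adjusted p of 0.188 or more. Their sums were 647 to 828 against 1068 to 1157 CPM. When those 3 libraries were left out, which raised the genes called in this comparison from 223 to 1014, 3 of the 6 were called lower with ACS, CD5 (-0.81, adjusted p = 0.0161), CD2 (-0.65, adjusted p = 0.0305) and CD247 (-0.71, adjusted p = 0.0479). The part of the T cell markers in those results was not tested. CSF1R, C1QB, MSR1, ITGA2B, CCR7, ZBTB46 and the T and B cell markers given here were named after their values were seen. The single mesenchymal stromal marker tested was not called. Of 5 osteoclast markers, OCSTAMP was lower with IL-1ß against untreated (-1.13, adjusted p = 0.0348) and higher with PRP lysate (1.37, adjusted p = 0.00111) and ACS (1.49, adjusted p = 0.00199) against IL-1ß, and ACP5 was lower with both (-1.07, adjusted p = 0.00559, and -0.93, adjusted p = 0.0213). OCSTAMP was also higher with PRP lysate (1.29) and ACS (1.41) than with MSC-CM. Of 2 platelet markers tested, PPBP was higher with IL-1ß against untreated (2.12, adjusted p = 0.0471) and with PRP lysate against MSC-CM (2.06, adjusted p = 0.0103). The other, ITGA2B, went the other way in these comparisons (-0.44 and -0.13) and was not called. Without the 3 libraries that stood apart, PPBP was also called higher with PRP lysate against IL-1ß (1.52, adjusted p = 0.00977) and ACS (1.59, adjusted p = 0.0260). In that fit it was higher with ACS against MSC-CM too (1.07, adjusted p = 0.0405). Of 3 dendritic cell markers tested, FLT3 was higher with IL-1ß against untreated (1.06, adjusted p = 0.0494). It was lower with PRP lysate against IL-1ß (-1.52, adjusted p = 0.000718) and MSC-CM (-1.27, adjusted p = 0.00301), at 4.5 CPM or less on average in every group. CCR7 and ZBTB46 were not called, with 0.04 and -0.10 for IL-1ß against untreated and 0.15 and 0.29 for PRP lysate against IL-1ß.

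The proteins that act on cathepsins or beside them were described next. LGMN encodes legumain, an asparaginyl endopeptidase of lysosomes that processes cathepsins. It was 2586, 2163 and 1874 CPM in untreated, 2309, 2676 and 3729 CPM in IL-1ß and 2626, 1941 and 3205 CPM in MSC-CM libraries, against 541, 761 and 836 CPM with PRP lysate and 1309.7, 1037 and 785 CPM with ACS. The PRP lysate and ACS libraries were below all others and overlapped with each other.

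LGMN fell 4.07-fold with PRP lysate (-2.02 ± 0.252, adjusted p = 0.000448) and 2.78-fold with ACS (-1.48 ± 0.252, adjusted p = 0.00713) against IL-1ß. The former call held in all 16 alternatives, and the latter in 14 of 15, lost at an adjusted p of 0.0816 in a fit of these libraries alone. It was also lower with PRP lysate than with MSC-CM (-1.85, adjusted p = 0.000975) and with ACS than with MSC-CM (-1.31, adjusted p = 0.0179). The last call held in 10 of 15 alternatives and was lost without MSC-CM replicate 1 (adjusted p = 0.0769), MSC-CM replicate 3 (0.120), ACS replicate 2 (0.0815) or ACS replicate 3 (0.0912). Between PRP lysate and ACS the difference of -0.54 did not pass (adjusted p = 0.842, 95% interval -1.09 to 0.00).

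PSAP encodes prosaposin, the precursor of saposins, which binds the precursor of cathepsin D. It was 7924, 8261 and 7872 CPM with IL-1ß and 3933, 6046 and 4902 CPM with PRP lysate, and these groups did not overlap. The difference of -0.71 ± 0.158 was called (adjusted p = 0.0189), but not without IL-1ß replicate 2 (adjusted p = 0.0709) or PRP lysate replicate 3 (adjusted p = 0.0648). In all it held in 9 of 16 alternatives, with an adjusted p of up to 0.312. In the list of maturation and partner proteins (LGMN, PSAP, CD74, GLB1 and NEU1), 2 of 5 were thus lower with PRP lysate and 1 of 5 with ACS against IL-1ß. None was higher. Of all genes tested, 3.00% and 1.68% were called lower. The list medians were -0.25 and -0.28, beside 0.11 and 0.13 over all genes. Without IL-1ß replicate 3 they were -0.39 and -0.23, beside -0.02 and 0.01.

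**Figure D4:**
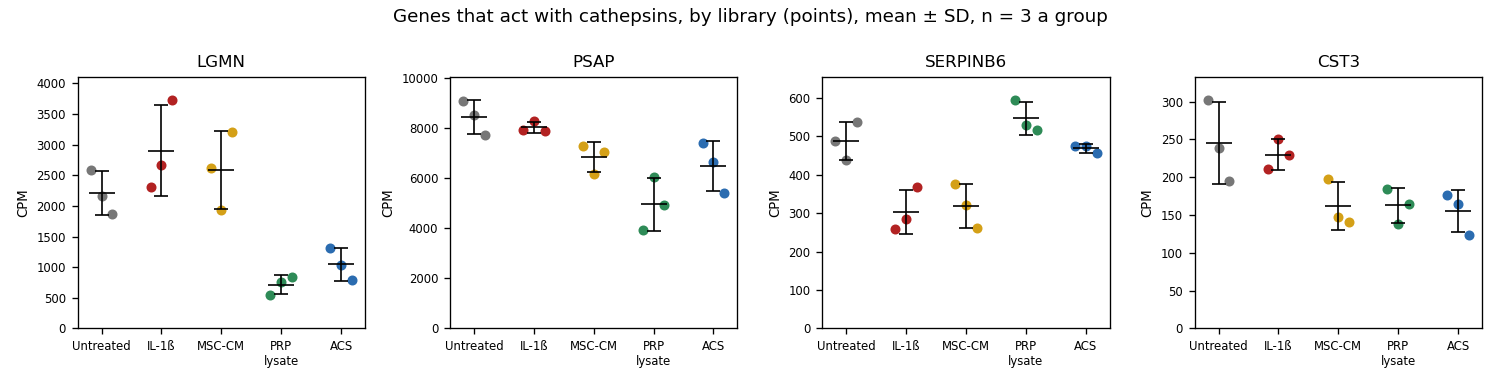
Levels in CPM (vertical axes, from 0) of LGMN, PSAP, SERPINB6 and CST3 by group (horizontal axes), where points are libraries and bars are mean ± SD with n = 3. LGMN was at 541 to 836 CPM with PRP lysate and 785 to 1309.7 CPM with ACS, below the other groups, whereas SERPINB6 was higher with PRP lysate (515 to 594 CPM) than with IL-1ß (258 to 368 CPM).

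Of the cystatin and serpin inhibitors, 7 of 8 were listed and 4 were tested. SERPINB6, an intracellular inhibitor of serine proteases that include cathepsin G, was 487, 439 and 536 CPM in untreated macrophages. It was 258, 285 and 368 CPM with IL-1ß and 375, 321 and 261 CPM with MSC-CM, against 594, 529 and 515 CPM with PRP lysate and 474, 475 and 455 CPM with ACS. With IL-1ß every library was below every untreated library, and the difference did not pass the threshold (-0.69 ± 0.155, adjusted p = 0.0820). It passed without IL-1ß replicate 3 (-0.84, adjusted p = 0.0307) and without the 3 libraries that stood apart (-0.84, adjusted p = 0.00398). SERPINB6 rose with PRP lysate against IL-1ß (0.86 ± 0.155, adjusted p = 0.00552) and against MSC-CM (0.79 ± 0.155, adjusted p = 0.0110). These calls held in 11 of 16 and 12 of 17 alternatives. With RLE size factors the former had an adjusted p of 0.0583, and without MSC-CM replicate 3 the latter had 0.0684. The rise with ACS against IL-1ß (0.64 ± 0.155, adjusted p = 0.0396) held in 4 of 15 alternatives. It was lost with RLE size factors (adjusted p = 0.204) and without any library of these groups other than IL-1ß replicate 3, at adjusted p from 0.0549 to 0.153. For ACS against MSC-CM the difference of 0.57 did not pass (adjusted p = 0.0966). It passed without the 3 libraries that stood apart (0.69, adjusted p = 0.00346).

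CST3, encoding cystatin C, the secreted inhibitor of cysteine cathepsins, was 210.3, 250.5 and 229 CPM with IL-1ß, 198, 147 and 140.5 CPM with MSC-CM, 185, 138 and 165 CPM with PRP lysate and 177, 164 and 124 CPM with ACS. With each OT every library was below every IL-1ß library, and none of the differences passed (MSC-CM -0.52, adjusted p = 0.705, PRP lysate -0.50, adjusted p = 0.187, ACS -0.58, adjusted p = 0.135). Among the other cathepsins, 4 of 5 were listed, 3 were tested (CTSO, CTSV and CTSW) and 0 were called in any comparison. CTSW, known from cytotoxic lymphocytes, was highest in PRP lysate replicate 1 at 117 CPM and in IL-1ß replicate 3 at 94.5 CPM, the libraries with the highest T cell markers.

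Sorting to the lysosome depends on mannose 6-phosphate tagging and its receptors, and the MiT/TFE transcription factors (TFEB, TFE3, MITF and TFEC) activate many lysosomal genes. None of the 6 sorting genes and none of the 4 factors was called in any comparison. The sorting genes had a median difference of 0.15 with PRP lysate and 0.59 with ACS against IL-1ß, and the factors 0.35 and 0.65, beside 0.11 and 0.13 over all genes. The sorting genes summed to 1297, 967 and 547 CPM with IL-1ß, lowest in replicate 3. Without that library their medians were -0.04 and 0.04 and those of the factors -0.10 and 0.45, beside -0.02 and 0.01. Without the 3 libraries that stood apart, the medians of the sorting genes were 0.17 and 0.04. Those of the factors were then 0.20 and 0.45, beside 0.02 and 0.01. In that last fit SORT1, a sorting receptor named here after its value was seen, was called higher with ACS than with IL-1ß (0.68, adjusted p = 0.0423). It was also called higher with ACS than with MSC-CM (0.71, adjusted p = 0.0296).

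The genes with the most similar pattern over the 15 libraries were found by Pearson correlation of log2(CPM + 1), as a description, since libraries of a group share their treatment. For CTSC these were TMEM176B (0.97), MERTK (0.96) and ENSECAG00000017042 (0.95). For CTSD they were NINJ1 (0.99), CDA (0.97) and ENSECAG00000016754 (0.97), and those of CTSB included ENSECAG00000035602 (0.97) and SCPEP1 (0.96). ATP6AP1 was among those of CTSA (0.91), CTSS (0.94) and CTSZ (0.94), next to DNASE1L1 (0.91) and GSR (0.91) for CTSA and ANXA5 (0.93) for CTSS. CTSS was itself among those of CTSZ (0.91), and ENSECAG00000033029 among those of both CTSS (0.93) and CTSZ (0.91). CTSK was most similar to STX7, SDCBP and GPR137B (0.95 each). CTSL (ENSECAG00000042076 0.86, ADGRG3 0.80 and CYSLTR2 0.77) and CTSF (ZCWPW2 0.82, SLC39A13 0.81 and ATP5PB 0.79) had no gene above 0.90.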

How the data were processed

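RNA sequencing values of 15 macrophage libraries in 5 groups of 3 were used. The values deposited by the authors are CPM. By the study's methods and the submitters' processing notes, cutadapt, STAR 2.7.3 and HTSeq were run within Partek Flow, with the EquCab3.0 build and an Ensembl annotation. Whether counting used strand, and any filter, are not given in the sources used here. The study's methods give a further 24 h of culture after the treatment, while the sample labels describe collection after washing at 24 h. Groups came from the sample labels. Replicates of ACS were numbered in the order of the samples, the others as titled. All columns were matched, with 0 left over.

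The 11628 genes whose mean over the libraries reached 1 CPM were tested with limma 3.58.1 (R 4.3.3, intensity trend) on log2(CPM + 1), with all 15 libraries in 1 fit and Benjamini-Hochberg adjustment within each of 7 comparisons. The log2(CPM + 1) scale understates changes of genes with few CPM. The study used DESeq on CPM and a fold threshold, and the at least 2-fold rule was an alternative here.

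Whole reads were recovered from the step of 1 read in each library. Of all values, 99.7% were whole multiples within 0.1 read. DESeq2 1.42.0 and edgeR 4.0.16 were run on these reads. Other alternatives were RLE size factors on the CPM, a pseudocount of 0.1, no filter, only the 2 groups compared, a replicate block, and leaving out each library. Leaving out the 3 libraries that stood apart, with or without RLE size factors, was added after seeing the data, as was a replicate block on the PRP lysate and MSC-CM libraries alone. Those OTs were made from the same donor horses by the study's methods, the labels do not say whether a number marks a donor, and deviations from the group means correlated over 0.1 in 3 of 3 same-numbered pairs (0.63, 0.26 and 0.42). Unlike numbers reached 0.39 (MSC-CM 2 with PRP lysate 3) and 0.47 (MSC-CM 3 with PRP lysate 2), above the own number of those MSC-CM libraries. Steps were tested on simulated data (seed 20230216). Python 3.11.15 and matplotlib 3.10.9 drew the figures.

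The 10 cathepsins, 5 lists of related genes and 8 lists of cell type markers were chosen with earlier results of these data known. Named genes were the members, the 2 called genes with the largest change of each list in a comparison, and the 3 genes most correlated with each member, of which 1 is not reported here. CD68, CD14, CST3, CTSW and others marked so in the text were named after their values were seen. Without exon lengths, levels were not compared between genes. CTSG, CSTB, C1QA, CD79B, PF4, CXCR2, S100A8, S100A9 and COL3A1 had no row under their symbols and were not analysed here.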

Additional observations from a re-analysis of the deposited data

Results flagged for a closer look

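The listed results are those in which the effects of 2 OTs on IL-1ß activated macrophages differed by a direct test between the OTs, with limma on log2(CPM + 1) and adjusted p-values over all genes tested.

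CTSC was lower with PRP lysate than with MSC-CM by a difference of -2.18 (adjusted p = 8.06e-06), lower with ACS than with MSC-CM by -0.89 (adjusted p = 0.00515), and lower with PRP lysate than with ACS by -1.29 (adjusted p = 0.00187). LGMN differed by -1.85 between PRP lysate and MSC-CM (adjusted p = 0.000975) and by -1.31 between ACS and MSC-CM (adjusted p = 0.0179). SERPINB6 was higher with PRP lysate than with MSC-CM by 0.79 (adjusted p = 0.0110). For each of these differences all 3 libraries of one OT lay beyond all 3 of the other. That also held for 19.4% of all genes tested in PRP lysate against MSC-CM. The share was 35.1% in ACS against MSC-CM and 15.6% in PRP lysate against ACS.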

How the results depend on the processing

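Among the differences of single genes recomputed under the alternatives, none turned its direction, 363 values stayed on their side of the threshold, 55 lost a call and 8 gained one. PRP lysate against IL-1ß had 1 cathepsin called rather than 3 (CTSC) with no filter, at least 2-fold, only the 2 groups, the replicate block and without the 3 libraries apart with RLE size factors. ACS against IL-1ß had 0 at least 2-fold and with only the 2 groups, and 2 by DESeq2. PRP lysate against MSC-CM had 3 without the 3 libraries and 2 with RLE size factors in addition. ACS against MSC-CM had 0 at least 2-fold and 3 with only the 2 groups, and PRP lysate against ACS 0 with only the 2 groups. Leaving out 1 library gave 1 to 3 cathepsins for PRP lysate against IL-1ß, 1 to 2 for ACS against IL-1ß and for PRP lysate against MSC-CM, and 1, 1, 0 and 0 throughout for ACS against MSC-CM, PRP lysate against ACS, IL-1ß against untreated and MSC-CM against IL-1ß.

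Over all genes the calls moved more, in the order IL-1ß against untreated, PRP lysate and ACS against IL-1ß, PRP lysate and ACS against MSC-CM, PRP lysate against ACS. They were 45, 574, 401, 491, 223 and 12 as reported, 342, 1092, 949, 830, 522 and 80 by DESeq2, and 0, 56, 49, 185, 1536 and 0 with only the 2 groups. Without the 3 libraries they were 410, 1178, 772, 1506, 1014 and 74, and with RLE size factors in addition 438, 1187, 801, 1441, 910 and 77. At least 2-fold left 359, 257, 304 and 143 for the OTs against IL-1ß and against MSC-CM, and a pseudocount of 0.1 gave 19 for PRP lysate against ACS. MSC-CM against IL-1ß had 0 called as reported, 1 with no filter and 2 by DESeq2. Leaving out 1 library gave 5 to 57, 354 to 799, 121 to 1179, 219 to 702, 63 to 156 and 5 to 18, and 0 for MSC-CM against IL-1ß. The causes were not tested.

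For PRP lysate against MSC-CM, whose OTs share donors and whose same-numbered pairs all correlated over 0.1, a replicate block on these 6 libraries alone gave 647 genes and 1 cathepsin, and changed no call of CTSC, LGMN or SERPINB6. Between the other groups the numbers were not shown to pair the libraries, with 1 or 2 of 3 same-numbered pairs correlated over 0.1. Over the 18 same-numbered pairs the correlations ran from -0.77 to 0.63, and 6 of 12 libraries correlated best with their own number. With the replicate block on the 12 numbered libraries, 6, 216 and 191 genes were called for IL-1ß against untreated, PRP lysate against IL-1ß and PRP lysate against MSC-CM, and 6, 382 and 315 on the same libraries without the block.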
